A study of Mus musculus with 12 samples.

Results

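The cytosolic ribosomal protein genes were examined in RNA-Seq of the adult mouse hippocampus. They were taken as protein-coding genes of GENCODE vM21 with a symbol starting with Rpl or Rps followed by a digit, or Rplp0, Rplp1, Rplp2 or Rpsa, without the kinases whose symbols start with Rps6k. Of 92 such genes, 86 had a mean of 1 TPM or more over the 12 libraries and were kept, among 35580 genes in all. TPM is a level scaled to the depth of the library and to transcript length, summed here over the transcripts of a gene, so that levels of different genes can be set side by side. The other 6 genes were listed at 0 in every library (Rpl10l, Rpl9-ps1 and Rpl36-ps4) or at a mean of 0.0672 TPM (Rpl36a-ps1), 0.268 TPM (Rpl3l) and 0.272 TPM (Rpl39l).

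The 12 libraries came from male C57BL/6 mice (C57BL/6J in the study's methods) at postnatal day 70, with 3 mice in each of 4 groups. Control mice (CC) had neither exposure. Ethanol mice (EC) were born to dams with free choice between water and 10% ethanol during gestation, stress mice (CS) were isolated from dam and littermates for 3 h a day on postnatal days 2 to 14, and ethanol + stress mice (ES) had both exposures. Intake was voluntary, blood alcohol was not measured in these dams, and the ethanol stayed available for a time after birth. Each litter was split between separated and undisturbed pups, and the labels do not say which mice were littermates. RNA of the whole hippocampus was depleted of ribosomal RNA, so the values describe mRNA of ribosomal protein genes and hold nothing on ribosomal RNA or on protein.

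The cytosolic ribosome is built from a large (60S) subunit and a small (40S) subunit, and each ribosomal protein with an Rpl symbol belongs to the former and each with an Rps symbol to the latter. Rplp0, Rplp1 and Rplp2 form the stalk of the large subunit, which recruits elongation factors. The mRNAs of these proteins are short and abundant, and in mammals many begin with a C followed by a run of pyrimidines, the terminal oligopyrimidine (TOP) start, through which mTOR signalling and LARP1 set their translation. In neurons they are among the mRNAs found in dendrites and axons as well as in the soma.

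Because a shared transcript start is a known feature of the family, start sequences are shown for the most abundant gene, for its intronless copy, for further genes with a pyrimidine start, and for 3 genes without one. They are RefSeq sequences of GRCm38.p6, read 5′ to 3′ on the gene's strand, from 10 bases before to 20 bases after the annotated start. Capitals mark a C within 5 bases of the start together with at least 5 further C or T bases that follow it.
Rps27, chr3:90213629-90213658, minus strand: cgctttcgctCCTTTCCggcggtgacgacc
Rps27rt, chr9:114982720-114982749, minus strand: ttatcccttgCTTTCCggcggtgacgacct
Rps21, chr2:180257369-180257398, plus strand: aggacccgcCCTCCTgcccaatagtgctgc
Rps18, chr17:33955646-33955675, minus strand: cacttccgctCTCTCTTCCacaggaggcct
Rps6, chr4:86857348-86857377, minus strand: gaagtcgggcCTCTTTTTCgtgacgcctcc
Rpl22l1, chr3:28805498-28805527, plus strand: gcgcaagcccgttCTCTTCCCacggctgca
Rpl10, chrX:74270806-74270835, plus strand: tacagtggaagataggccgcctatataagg
Rpl4, chr9:64173377-64173406, plus strand: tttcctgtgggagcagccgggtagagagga
Rplp0, chr5:115559457-115559486, plus strand: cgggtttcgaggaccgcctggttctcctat
The RefSeq table held a promoter for 63 of the 86 genes, and 25 of them (39.7%) had such a pyrimidine start, against 10.1% of 32777 promoters of other genes. The letters CCGGAAG, searched on both strands from 250 bases before to 50 after the start, were present in 23 promoters (36.5%), against 8.8% of the others. The letters AAGATGGCG were present in 4 (6.35%), against 1.39%. The last letters of the former and the first of the latter can overlap, and neither holds the pyrimidine start. Only 31 of the 63 RefSeq starts lay within 20 bases of the start of the transcript that held most of the gene's TPM, so the annotated start is an approximation of the start in use. Rps27rt, which has no intron, keeps most of the letters that follow the start of Rps27.

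By role, the 86 genes were 43 of the large subunit, 31 of the small subunit, 3 of the stalk, 4 intronless copies that are annotated as protein-coding (Rpl10-ps3, Rps12-ps3, Rpl9-ps6 and Rps27rt), 3 paralogs of subunit genes (Rpl22l1, Rpl36al and Rps27l) and 2 genes that the symbol rule also takes (Rpl7l1 and Rps19bp1). Rps19bp1 encodes a protein that binds Rps19 and activates the deacetylase Sirt1 and is no part of the ribosome. The genes lay on 20 chromosomes, with 14 of them on chromosome 7 and 4 on the X chromosome. Their mean transcript lengths, weighted by TPM, ran from 346 to 1872 nt with a median of 683 nt, against a median of 2286 nt for the other 18349 genes tested. Of the 86 genes, 73 were under 1000 nt, and so were 14.2% of the other genes.

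The ribosomal protein genes held 5.92% to 8.43% of the summed TPM of a library. Mean levels of large subunit genes ran from 17.0 to 2002 TPM with a median of 648 TPM, and those of small subunit genes from 108 to 2789 TPM with a median of 815 TPM. In all, 78 genes had a mean of 100 TPM or more and 23 had 1000 TPM or more. The 5 most abundant genes held 16.8% of the summed level of the family. The order at the top was stable: Rps27 was first in 9 of 12 libraries and Rps29 in the other 3, and these genes and Rplp1 were among the top 3 in every library.

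Rps27, a small subunit gene (chr3:90212522-90213651), stood at 2605, 2509 and 2308 TPM in the controls, 2609, 4197 and 1956 TPM in ethanol mice, 2984, 1943 and 2527.5 TPM in stress mice, and 2179, 3870.4 and 3783 TPM in ethanol + stress mice. The second ethanol mouse and the second and the third ethanol + stress mice stood highest, the first stress and, narrowly, the first ethanol mouse were also above all controls, and the third ethanol, second stress and first ethanol + stress mice were below all controls. Rps29, also of the small subunit (chr12:69157722-69159186), was at 2263, 2215 and 2246 TPM in the controls, 2481, 3335 and 2075 TPM in ethanol mice, 2568, 2044 and 2573 TPM in stress mice, and 2143, 3229.6 and 3309 TPM in ethanol + stress mice. The same 3 mice were the highest. Rplp1, an acidic stalk protein gene (chr9:61913284-61914542), was at 2508, 2279.6 and 2191 TPM in the controls, 2489, 3445 and 1948 TPM in ethanol mice, 2752, 2028 and 2374 TPM in stress mice, and 2073, 3158 and 3154 TPM in ethanol + stress mice. For each of the 3 genes the treated groups overlapped the control group. Rpl41, which encodes the smallest ribosomal protein, had 1787 ± 213 TPM in the controls, 2097 ± 734 in ethanol mice, 1896 ± 371 in stress mice and 2229 ± 660.4 in ethanol + stress mice (mean ± SD, n = 3), and Rpl13a had 1736 ± 170 (SD, n = 3) in the controls and 2154 ± 673 in ethanol + stress mice. Rpl13a is known from interferon signalling as a translational silencer when phosphorylated. Of its TPM, 51.7% were assigned to transcripts annotated with a retained intron, and for 6 of the 86 genes, among them Rpl13a, Rpsa, Rps23, Rps16 and Rps20, the leading transcript was not annotated as protein-coding.

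Sharing of sequence with other genes was common in the family and not particular to its lowest genes. Among the 5 lowest, Rps19bp1, at a mean of 36.7 TPM, shared none. For 68 of the 86 genes, at least 50% of the 31-base words of the leading transcript also occurred in transcripts of other genes, and reads from such words are divided between the genes by the authors' quantification. The low genes Rpl7l1 (49.4 TPM) and Rps27l (85.9 TPM) shared less, at 21.7% and 29.6% of these words. Rpl27 of the large subunit had a mean of 37.9 TPM, and Rpl27-ps3, annotated as a processed pseudogene, had 784 TPM, or 94.6% to 96.2% of their sum in a library. Rps12 had 108 TPM and its intronless copy Rps12-ps3 had 1223 TPM. Rpl10, whose protein joins the large subunit late, near the peptidyl transferase centre, had 128 TPM and Rpl10-ps3 had 822 TPM. The levels of these genes taken singly are therefore uncertain. Summed with the copies named here, they were 822 TPM for Rpl27, 1331 TPM for Rps12 and 949 TPM for Rpl10. The medians were 648 TPM for large and 815 TPM for small subunit genes, whose wide ranges also hold the single levels. Rpl12, at 17.0 TPM, was the lowest subunit gene, and 43.6% of its TPM were in transcripts with a retained intron. Rps27rt was listed at 0 in all 3 control libraries and at 0 to 8.41 TPM in the others, beside 2789 TPM of the nearly identical Rps27, and it was the single gene of the 86 that did not pass the filter for the tests (0.1 TPM or more in at least 6 libraries). Rpl9-ps6 was listed at 0 in 4 libraries and at 1.10 to 4.06 TPM in the other 8.

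The main feature of the family in these mice was a shared rise and fall from library to library. The summed level was 65513, 63201 and 59740 TPM in the controls, 67103, 98913 and 53742 TPM in ethanol mice, 75933, 54318 and 67590.3 TPM in stress mice, and 55848, 90608 and 89346 TPM in ethanol + stress mice. The highest library was 1.84 times the lowest, and both were ethanol mice. The totals of the deposited values also differed, from 889222 to 1173650 TPM per library. As a share of that total the range was 1.42-fold, from 5.92% in the second stress mouse to 8.43% in the second ethanol mouse. Within a group the highest sum was 1.10 times the lowest in the controls, 1.84 times in ethanol mice, 1.40 times in stress mice and 1.62 times in ethanol + stress mice. The sums of all 3 treated groups overlapped those of control.

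**Figure D1:**
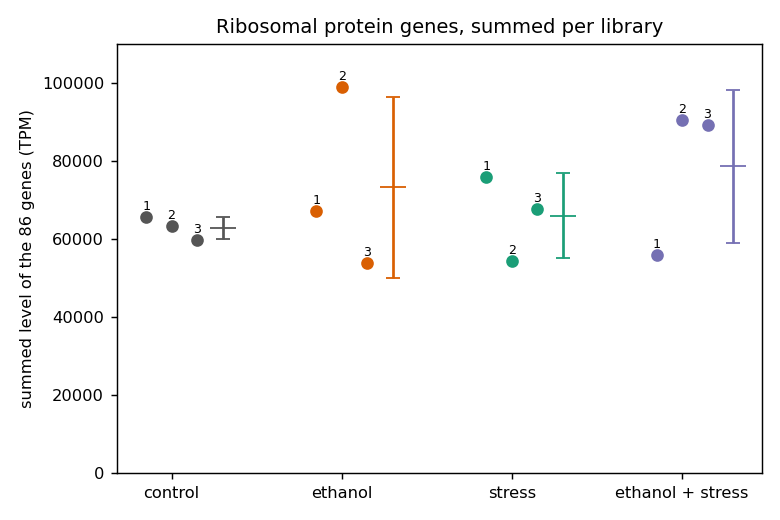
Summed level of the 86 ribosomal protein genes in TPM for each mouse (points, numbered by replicate) and mean ± SD of the 3 mice of each group (bars to the right). The control sums lie between 59740 and 65513 TPM, and each treated group has a mouse below this range and a mouse above it.

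Nearly every gene followed the sum. Of the 85 genes tested, all 85 were higher in the second than in the third ethanol mouse, by a median of 1.77 times, while 54.0% of all genes were higher there. All 85 were higher in the first than in the second stress mouse, by a median of 1.36 times (48.2% of all genes). All 85 were likewise higher in the second than in the first ethanol + stress mouse, by a median of 1.59 times (52.0% of all genes), and in the third than in the first, by 1.55 times (53.3% of all genes). Between the first and the third control mice, 68 of 85 were higher in the first, by a median of 1.07 times. The highest value of the 12 was in the second ethanol mouse for 80 genes (14.9% of all genes), in the second ethanol + stress mouse for 3 (13.1%) and in the third ethanol + stress mouse for 2 (10.8%). The lowest was in the third ethanol mouse for 39 genes (13.1% of all genes), in the second stress mouse for 31 (9.22%) and in the first ethanol + stress mouse for 11 (8.16%). These are comparisons of single mice within a group, with no test. Each pair set a mouse with a high sum of these same genes against the mouse with the lowest sum of its group. The direction of most genes therefore followed from the choice of the pair.

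**Figure D2:**
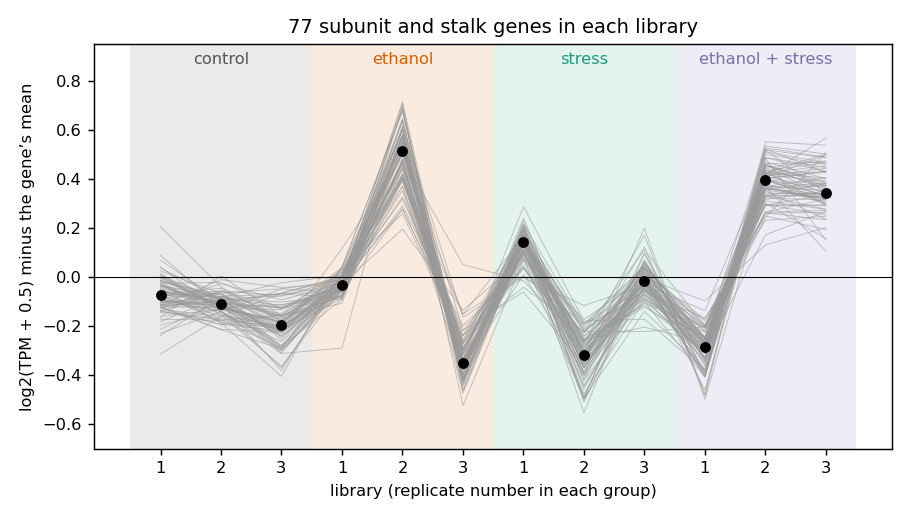
Each line is one of the 77 subunit and stalk genes, as log2(TPM + 0.5) minus the mean of that gene over the 12 libraries, and black points are the medians. Lines only join the values of a gene, and the order of replicates has no meaning. The genes stand together above their mean in the second ethanol and the second and the third ethanol + stress mice, and together below it in the third ethanol, second stress and first ethanol + stress mice. By smaller amounts, most genes stand above it in the first stress mouse and below it in the remaining mice, among them all controls.

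The large and small subunit genes moved in near proportion. The sum of small subunit genes was 0.806 to 0.856 times that of large subunit and stalk genes in every library, a 1.06-fold range beside the 1.84-fold range of the whole sum. It was 0.816 ± 0.0086 in the controls, 0.832 ± 0.022 in ethanol mice, 0.822 ± 0.0090 in stress mice and 0.847 ± 0.0092 in ethanol + stress mice (SD, n = 3). Each ethanol + stress value (0.837 to 0.854) lay above the 3 control values (0.806 to 0.821), but the 3 libraries with the highest sums also had the 3 highest ratios. The first ethanol + stress mouse, with a sum below all controls, had the next ratio in order (0.837), and the group difference was not tested. The SD over the 12 libraries had a median of 0.30 on the log2 scale for the genes themselves and of 0.076 once the mean of the 85 genes was subtracted in each library.

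Single genes departed from the shared course to differing degrees. Rpl37a stayed closest to it, with an SD of 0.032 (log2) relative to the other genes, followed by Rpl27a at 0.034. Rpl4, a large subunit protein at the exit tunnel, varied least in itself: it was at 550.4, 591 and 579 TPM in the controls, 584, 682 and 542 TPM in ethanol mice, 629, 528 and 594 TPM in stress mice, and 557, 652 and 685 TPM in ethanol + stress mice, a 1.30-fold range. At 1533 nt it is among the longer transcripts of the family. Rpl22l1, a paralog of Rpl22, varied more than most, at 283, 272 and 259.8 TPM in the controls, 346, 526 and 242 TPM in ethanol mice, 351, 199 and 322 TPM in stress mice, and 255, 439.9 and 451 TPM in ethanol + stress mice, a 2.65-fold range. The paralog Rps27l, a gene induced by p53, ran from 51.1 TPM in the third ethanol mouse to 136 TPM in the second ethanol + stress mouse, and Rpl36al from 288 to 497 TPM, both extremes in ethanol mice. Rps19bp1 (SD 0.21 relative to the genes of the family) and Rpl7l1 (0.17), the genes outside the subunits, were among the least bound to it. So were the subunit genes Rpl10 (0.19) and Rpl4 (0.18).

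Prenatal ethanol alone was compared with control to ask which genes it changed in the adult hippocampus. No ribosomal protein gene passed the test: 0 of 85 had an unadjusted p under 0.01 in limma, where 0.678% of all 18434 genes were called, and 0 of 85 had an unadjusted p under 0.05, where 3.63% of all genes did. The fold changes were small and mostly positive. The median log2 fold change of the 85 genes was 0.16 (1.12-fold), and 84 of 85 were above 0, while the median of all genes was 0.023 and 55.6% of all genes were above 0. Since the genes moved together from mouse to mouse, these 84 signs are not independent observations. Large subunit genes had a median of 0.16, small subunit genes 0.19 and stalk genes 0.11. No gene of the 85 had an adjusted p under 0.05, which 0.00542% of all genes had, and the smallest limma adjusted p was 0.997. The 95% intervals of the 77 subunit and stalk genes all held 0, with median limits of -0.34 and 0.69, so that with 3 mice a group a change of this size was not detectable. The median was -0.060 without the second ethanol mouse, 0.21 without the first and 0.35 without the third, so its direction rested on 1 mouse. The deposited TPM summed to 889222 to 1173650 per library, lowest in the third and highest in the second ethanol mouse, and with every library scaled to a common total the median of the 85 genes was 0.081, with that of all genes at -0.048, and the summed level was 1.08 times that of control.

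Rpl10 (chrX:74270812-74273135) had the smallest p. It was at 100.4, 112 and 107 TPM in the controls and at 135, 176 and 129 TPM in ethanol mice, so that all 3 ethanol mice were above all 3 controls. The values of its intronless copy Rpl10-ps3 were 747, 744 and 711 TPM in the controls and 786, 1065 and 660.4 TPM in ethanol mice, which overlap. The log2 fold change of Rpl10 was 0.45 ± 0.21 (SE, 95% interval -0.0090 to 0.91, limma adjusted p = 0.997). Together Rpl10 and Rpl10-ps3 had 841 ± 19.5 TPM in the controls and 984 ± 232 TPM in ethanol mice (SD, n = 3). With the spread taken from these 2 groups alone, Rpl10 was called (limma adjusted p = 0.991), as were 145 of all 18434 genes in place of 125. It was also called when the first ethanol + stress mouse was left out of the model (limma adjusted p = 0.971), where 148 of all genes were. Rpl7l1, the gene with the longest leading transcript (2606 nt), had 49.2, 40.7 and 46.5 TPM in the controls and 51.7, 63.0 and 49.4 TPM in ethanol mice, with a log2 fold change of 0.26 ± 0.14 (SE, limma adjusted p = 0.997). Rpl10 and Rpl7l1 were 2 of 85 genes with every ethanol value above every control value, a pattern held by 5.06% of all genes. No gene of the 85 had the reverse, which 3.19% of all genes had. The 1 gene with a negative estimate was Rpl9-ps6, at -0.18 ± 0.94 (SE, limma adjusted p = 0.999), with values of 0 in 3 of these 6 libraries. Its mean on the linear scale was the higher in ethanol mice, at 1.35 TPM against 0.879 TPM in the controls.

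**Figure D3:**
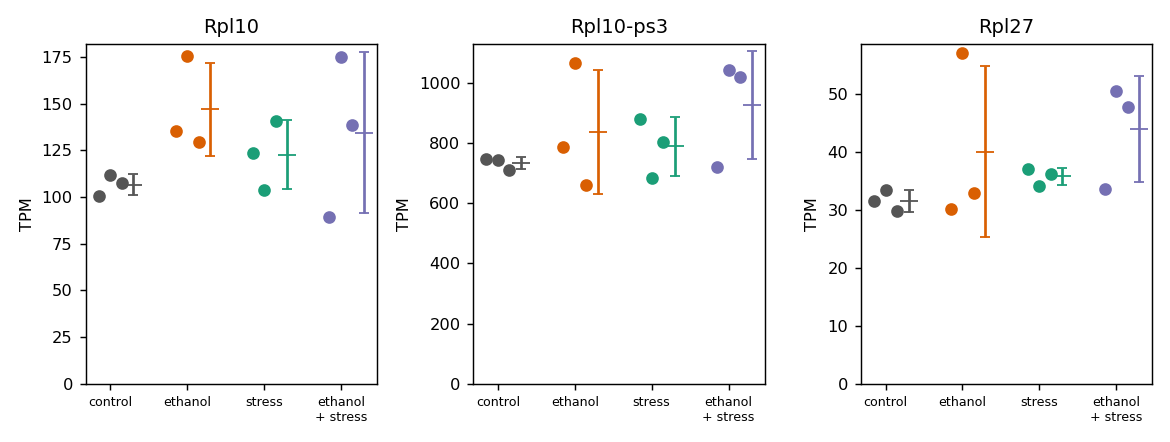
Levels in TPM of Rpl10, of its intronless copy Rpl10-ps3 and of Rpl27 in each mouse (points), with mean ± SD of 3 mice (bars to the right). The 3 ethanol values of Rpl10 lie above the control values of 100.4 to 112 TPM, and those of Rpl10-ps3, which shares most of its sequence, do not separate from control.

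Postnatal separation alone was compared with control to ask the same of early stress. The family was close to control: 0 of 85 genes were called, where 0.51% of all genes were, and 0 of 85 had an unadjusted p under 0.05, where 2.4% of all genes did. The median log2 fold change was 0.054 (1.04-fold), against 0.0042 for all genes, with 80 of 85 above 0 where 51.5% of all genes were. Large subunit genes had a median of 0.049, small subunit genes 0.075 and stalk genes 0.029. The smallest limma adjusted p was 0.9998. The 95% intervals of the 77 subunit and stalk genes had a median from -0.44 to 0.57 and all held 0. The median of the 85 genes was -0.045 without the first stress mouse, 0.18 without the second and 0.032 without the third. It was 0.083 without the first control mouse and 0.024 without the third.

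The smallest p belonged to Rps19bp1, with 36.9, 39.7 and 37.9 TPM in the controls and 36.0, 27.8 and 32.3 TPM in stress mice, with a log2 fold change of -0.26 ± 0.16 (SE, limma adjusted p = 0.9998). All 3 stress values were below all 3 control values, in 1 of 85 genes and in 3.39% of all genes. Rpl27 had the reverse, 31.5, 33.5 and 29.8 TPM in the controls and 37.0, 34.1 and 36.2 TPM in stress mice, also in 1 of 85 genes and in 3.81% of all genes. Its log2 fold change was 0.18 ± 0.21 (SE, limma adjusted p = 0.9998), and it was -0.0038 when named pseudogenes were added to their parent genes. Rpl10 had 124, 104 and 141 TPM in stress mice and an estimate of 0.19 ± 0.21 (SE, limma adjusted p = 0.9998). Rpl9-ps6 had an estimate of 0.75 ± 0.94 (SE, limma adjusted p = 0.9998). Rpl28, the gene with the shortest leading transcript (312 nt), had 616, 519 and 471 TPM in the controls and 611, 458 and 458 TPM in stress mice, with an estimate of -0.078 ± 0.18 (SE). That of Rpl36a, at 521 ± 16.7 TPM in the controls and 524 ± 109 TPM in stress mice (SD, n = 3), was -0.014 ± 0.21 (SE).

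The combination of both exposures gave the largest estimates for the family, and again no gene passed the test. Of 85 genes, 0 were called, where 0.971% of all genes were, and 0 had an unadjusted p under 0.05, where 5.37% of all genes did. The median log2 fold change was 0.27 (1.21-fold), against 0.023 for all genes, and 84 of 85 were above 0 where 54.1% of all genes were. The medians were 0.26 for large subunit genes, 0.33 for small subunit genes and 0.24 for stalk genes, and the summed level was 78601 ± 19715 TPM against 62818 ± 2905 TPM in the controls (SD, n = 3), or 25.1% higher. With every library scaled to a common total the summed level was 1.12 times that of control and the median log2 fold change 0.14, with that of all genes at -0.092. An adjusted p under 0.05 was reached by 0 of 85 genes and by 0.00542% of all genes, and the smallest limma adjusted p was 0.791. The 95% intervals of the 77 subunit and stalk genes had a median from -0.23 to 0.78 and all held 0. Without the first ethanol + stress mouse the median of the 85 genes was 0.50 and Rpl10 was called (log2 fold change 0.55 ± 0.16 (SE), limma adjusted p = 0.237), while 763 of all genes were called in place of 179. Without the second mouse of the group the median was 0.15 and without the third 0.17.

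Rpl27 (chr11:101442298-101445529) had the smallest p, at 31.5, 33.5 and 29.8 TPM in the controls and 33.7, 50.6 and 47.7 TPM in ethanol + stress mice. Its log2 fold change was 0.45 ± 0.21 (SE, limma adjusted p = 0.791), and it was 0.27 with Rpl27-ps3 and other named pseudogenes added. It was called when the second ethanol mouse was left out of the model (limma adjusted p = 0.70), where 215 of all genes were called in place of 179. Rpl27 was the 1 gene of 85 with every value above control, against 5.63% of all genes, and no gene had the reverse, against 4.62%. Rpl10a of the large subunit had 388, 352 and 302 TPM in the controls and 335, 533 and 545 TPM in ethanol + stress mice, with an estimate of 0.41 ± 0.24 (SE, limma adjusted p = 0.791). Rpl10-ps3 had 720.0, 1041 and 1018 TPM in ethanol + stress mice and an estimate of 0.32 ± 0.19 (SE, limma adjusted p = 0.791). The first mouse of the group lay within or near the control range for all 3 genes and the other 2 above it. The 1 negative estimate was that of Rps19bp1, at 31.02, 48.0 and 34.6 TPM and -0.035 ± 0.16 (SE, limma adjusted p = 0.962).

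The interaction asks whether the difference made by ethanol was another one in separated mice. It was called for 0 of 85 genes, where 0.461% of all genes were called, and 0 of 85 had an unadjusted p under 0.05, where 2.69% of all genes did. The median estimate was 0.051 on the log2 scale, against -0.0093 for all genes, with 69 of 85 above 0 where 48% of all genes were. On a common total the median was 0.015, with that of all genes at -0.042. Positive estimates with the smallest p were those of Rps19bp1 (0.20 ± 0.23, SE), Rps27l (0.30 ± 0.38) and Rpl28 (0.16 ± 0.26). The negative ones were those of Rpl10 (-0.36 ± 0.30, SE), Rpl7l1 (-0.096 ± 0.20) and Rpl12 (-0.13 ± 0.35). The smallest limma adjusted p of the 85 was 0.99998. Leaving out single mice moved the median from -0.13 (without the third ethanol mouse) to 0.28 (without the second ethanol mouse). It was 0.27 without the first ethanol + stress mouse, -0.055 and -0.045 without the second and the third, 0.16 and -0.074 without the first and second stress mice, 0.081 without the third, 0.019 without the first ethanol mouse, 0.079 without the third control mouse and 0.032 without the first.

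The levels of the family were set beside the transcript length trend of the other genes in each library. For the 18349 other genes, the slope of the log2 level over log2 transcript length, relative to the mean library, ran from -0.10 in the second ethanol mouse, where short transcripts were relatively high, to 0.070 in the third ethanol mouse, where they were relatively low. The slope was lowest in the 3 mice in which the ribosomal protein genes were highest. In all 4 groups the order of the 3 mice by summed ribosomal protein level was the reverse of their order by slope. Across the 12 libraries, the median deviation of the 85 genes and this slope had a Pearson r of -0.98 (permutation p = 1e-05, the smallest that 100000 permutations can give) and a Spearman rho of -0.99 (permutation p = 1e-05), and r was -0.96 without the 2 mice of the farthest slopes. The adjusted p over 5 such relations was 2.5e-05 for both measures. Both quantities come from the same libraries and the same scaling.

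**Figure D4:**
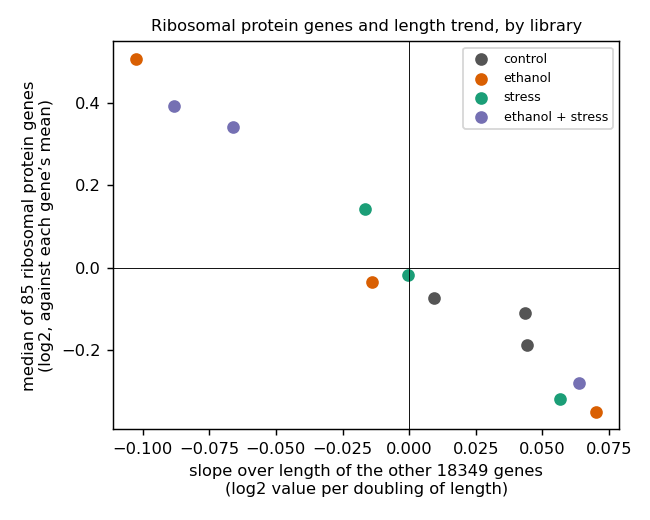
Each point is one mouse. The horizontal axis is the slope of log2 level over log2 transcript length in the 18349 genes outside the family, relative to the mean library, and the vertical axis is the median log2 deviation of the 85 ribosomal protein genes. The points fall along a line from the second ethanol mouse (upper left) to the third ethanol mouse (lower right), and mice of all groups but control lie on both sides of 0.

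Further measures of the libraries moved with the family or did not. The total of the deposited values, which the authors' scaling left at 889222 to 1173650 per library, was related to the median deviation with r = 0.99 (permutation p = 1e-05, adjusted p = 2.5e-05) and rho = 0.97 (permutation p = 1e-05, adjusted p = 2.5e-05), with r = 0.98 without the 2 farthest mice, and the ribosomal protein genes are part of this total. The summed level of mRNAs encoded in the mitochondrial genome, 51951 to 94277 TPM, was related with r = 0.90 (permutation p = 0.00036, adjusted p = 0.0006) and rho = 0.80 (permutation p = 0.00244, adjusted p = 0.00407), with r = 0.83 without the 2 farthest mice. No relation passed the test for the share of transcripts with a retained intron, 2.98% to 3.33% of TPM (r = 0.044, permutation p = 0.892, rho = 0.049, permutation p = 0.886, adjusted p = 0.892 and 0.886, r = 0.46 without the 2 farthest mice). The same held for the depth, recovered from the steps between low values, of 11960000 to 14850000 read pairs (r = -0.17, permutation p = 0.602, rho = -0.063, permutation p = 0.852, adjusted p = 0.752 and 0.886, r = 0.034 without the 2 farthest mice). The recovered mean fragment length was 188 to 195 bp in all libraries. The labels name no extraction or sequencing batch, so values within a batch cannot be given.

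Length was also visible in the group comparisons. In ethanol + stress against control, the median log2 fold change of the other genes was 0.066 below 400 nt (338 genes), 0.20 at 400 to 600 nt, 0.18 at 600 to 800 nt, 0.12 at 800 to 1200 nt, 0.070 at 1200 to 2000 nt, -0.0013 at 2000 to 4000 nt and -0.072 from 4000 nt. The other genes below 400 nt thus lay under those of 400 to 1200 nt. The ribosomal protein genes in the first 5 of these bins had medians of 0.33 (6 genes), 0.29 (26), 0.28 (26), 0.25 (19) and 0.20 (8), each above that of the other genes of like length, with the widest gap below 400 nt. In ethanol against control the other genes had 0.11, 0.16, 0.11, 0.088 and 0.048 in these bins and the ribosomal protein genes 0.21, 0.17, 0.15, 0.14 and 0.15. In stress against control the other genes had 0.010, 0.073, 0.044, 0.032 and 0.013, and the ribosomal protein genes 0.082, 0.057, 0.053, 0.049 and 0.032, lower than the other genes at 400 to 600 nt and higher in the other 4 bins. With the trend over length removed from each library by a smooth curve, the median of the 85 genes was 0.13 for ethanol + stress, 0.045 for ethanol and -0.0023 for stress, and 0 of 85 were called in each, beside 186, 137 and 105 of all 18434 genes. Across the 85 genes, which are not independent replicates, log2 fold change and log2 transcript length had a Pearson r of -0.14 for ethanol, -0.027 for stress and -0.38 for ethanol + stress. How far the length trend accounts for the estimates was not tested.

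**Figure D5:**
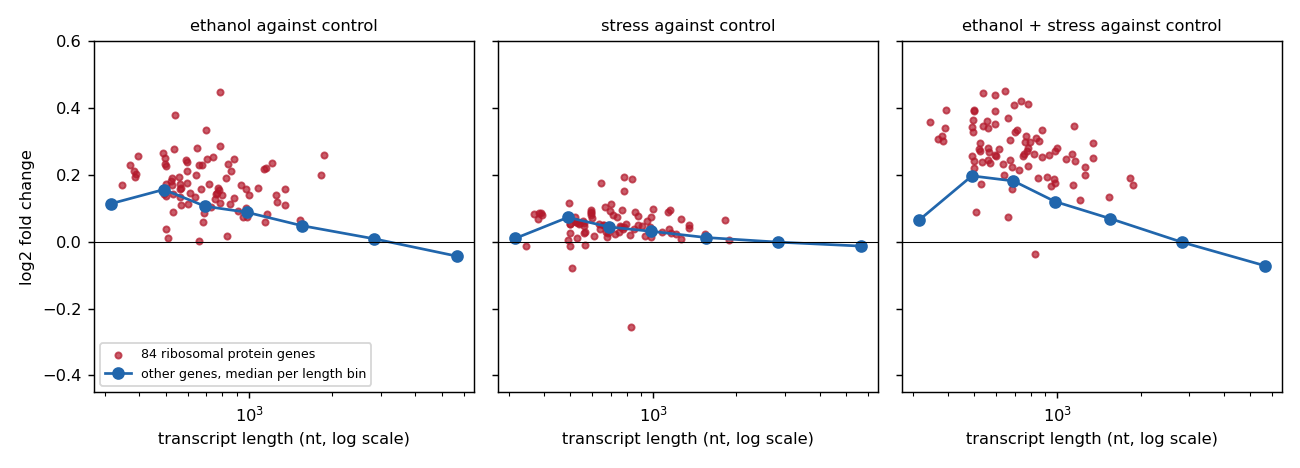
Log2 fold change against control of 84 ribosomal protein genes (red points, Rpl9-ps6 left out for its values of 0) by TPM-weighted transcript length on a log axis, and the median of all other tested genes in 7 length bins (blue). For ethanol + stress the other genes stand at 0.066 below 400 nt and fall from 0.20 at 400 to 600 nt to -0.072 from 4000 nt, and the ribosomal protein genes of 400 to 600 nt have a median of 0.29, while for stress the 2 medians in that bin are 0.073 and 0.057.

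The estimates were close for both types of start. Genes with the pyrimidine start (24 tested) had a median log2 fold change of 0.16 for ethanol, 0.047 for stress and 0.26 for ethanol + stress, and genes with an annotated promoter without it (38) had 0.19, 0.054 and 0.28. No test was run between them.

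Other genes of the translation apparatus were counted in the same fits, in which 0.678% (ethanol), 0.51% (stress) and 0.971% (ethanol + stress) of all genes were called, so that a count of 0 in lists of this size is near the share of all genes. Fau, which encodes a small subunit protein fused to a ubiquitin-like part, had 945 ± 101 TPM in the controls, 1074 ± 309 in ethanol mice, 986 ± 178 in stress mice and 1141 ± 274 in ethanol + stress mice (SD, n = 3). Rack1, a scaffold on the small subunit, had 317 ± 17.7 TPM in the controls, 359 ± 101 in ethanol mice, 319 ± 47.0 in stress mice and 382 ± 95.7 in ethanol + stress mice (SD, n = 3). Neither gene was called in any comparison. Of 8 listed genes with an Eef symbol, among them the kinase gene Eef2k, 0 were called in any comparison, with medians of 0.058, 0.024 and 0.14. Eef1a1, the factor that brings aminoacyl-tRNA to the ribosome, had 4303 ± 228 TPM in the controls and 5088 ± 1109 TPM in ethanol + stress mice (SD, n = 3), whereas Eef1a2, its form in neurons and muscle, had 664 ± 14.6 TPM and 590.0 ± 59.5 TPM.

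Of 14 listed genes outside the family known for a pyrimidine start 12 were tested and 0 were called, and their medians were 0.055 for ethanol, 0.021 for stress and 0.19 for ethanol + stress. Among the 78 nuclear genes of the mitochondrial ribosome, which translates the mRNAs of the mitochondrial genome, 0 were called. Their medians were 0.11, 0.033 and 0.20, and over the libraries their median deviation was highest in the second ethanol mouse (0.31, log2) and lowest in the third (-0.20), as in the cytosolic family. Of 13 genes of ribosome biogenesis 0 were called, with medians of -0.034, -0.035 and -0.013. Nucleolin (Ncl), a nucleolar protein of ribosomal RNA processing with a mean transcript length of 4292 nt, had 60.1, 58.7 and 66.4 TPM in the controls and 53.6, 34.9 and 38.9 TPM in ethanol + stress mice, with an estimate of -0.56 ± 0.19 (SE, limma adjusted p = 0.791). Polr1b, a subunit of RNA polymerase I, had the smallest p of this list in the stress comparison, with 8.36 ± 1.12 TPM in the controls and 6.53 ± 0.47 TPM in stress mice (SD, n = 3, log2 fold change -0.33, limma adjusted p = 0.9998).

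The labelled tissue held its defining markers, with all 6 pyramidal neuron and all 5 dentate granule neuron genes at a mean of 1 TPM or more and sums of 770 to 1042 TPM and 91.4 to 145 TPM. In bulk tissue, fewer cells of a type and less RNA per cell cannot be told apart. The summed level of 5 blood genes (haemoglobins and Alas2) was 1603 to 2022 TPM in the controls, 3146 to 6815 in ethanol mice, 2593 to 3392 in stress mice and 2454 to 6480 in ethanol + stress mice, and it was highest in the second ethanol and second ethanol + stress mice, in which the ribosomal protein genes were also high. The 6 choroid plexus genes summed to 617 to 1840 TPM in the controls, 39.0 to 3523 in ethanol mice, 1649.5 to 5256 in stress mice and 208 to 7243 in ethanol + stress mice, with 83.7 TPM in the second ethanol mouse. The 5 oligodendrocyte genes summed to 4150 to 4524 TPM, 2638 to 5085, 3503 to 5335 and 3441 to 5908 in the same order of groups, and the 5 astrocyte genes to 1748 to 2016 TPM, 1593 to 2420, 1762 to 1960 and 1651 to 2456. Some of these sums, but not all, were high in the same mice as the ribosomal protein sum. The pyramidal neuron sum was highest in the second ethanol mouse (973 TPM) and the second and the third ethanol + stress mice (979 and 1042), followed by the second stress mouse (948), in which the ribosomal protein genes were low. The dentate granule neuron sum ran the other way, with 104 TPM in the second ethanol mouse and 112 and 114 in the second and the third ethanol + stress mice, among the 5 lowest, and its highest value, 145 TPM, in the second stress mouse. The astrocyte sum was highest in the second ethanol mouse (2420 TPM) and the second and the third ethanol + stress mice (2431 and 2456), and lowest in the third ethanol and first ethanol + stress mice. The oligodendrocyte sum was highest in the second and the third ethanol + stress mice (5908 and 5868 TPM), then the first stress and second ethanol mice (5335 and 5085), and lowest in the third ethanol and first ethanol + stress mice, while the second stress mouse, low in ribosomal protein genes, had 4450 TPM. The microglia sum was also highest in the second ethanol (261.1 TPM) and the second and the third ethanol + stress mice (280.3 and 308) and lowest in the third ethanol mouse (197). The 5 genes each of microglia (197 to 308 TPM), endothelium (142 to 184), thalamus (38.1 to 52.3) and striatum (45.2 to 76.1) stayed within these ranges over the 12 libraries. No marker was at 0 in all libraries, and the part of cell composition in the ribosomal protein levels was not tested.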

How the data were processed

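RNA of the hippocampus of 12 mice, isolated with AllPrep kits, was sequenced as stranded paired-end libraries after RiboZero Gold depletion. Per the labels, reads passed through CASAVA, kallisto and sleuth with the build mm10; versions are not given in the sources used here. The deposited values are a signal: TPM per transcript that the authors scaled between libraries. Of 115270 transcripts, 113580 matched GENCODE vM21 (112441 with the same version), and values were summed per gene. Depth was recovered from the steps of low values as 11960000 to 14850000 read pairs per library (79.1% to 82.2% whole within 0.1), of which 1.59% to 2.84% fell to these genes. At 500 nt, 3 read pairs equal 1.04 to 1.31 TPM. Such limits cover counting error only.

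Log2(TPM + 0.5) of 18434 genes (a minimum of 0.1 TPM reached by 6 libraries or more) was fitted with limma 3.58.1 (lmFit, eBayes with trend, R 4.3.3) in 1 model of the 4 groups without a replicate block, as two-sided tests. Genes with an unadjusted p under 0.01 were called, with Benjamini-Hochberg adjustment over every gene in the fit given beside it. On simulated data for ethanol + stress against control (18434 genes), the calls found 96% of 100 genes with a simulated log2 change of 1, 99% of 100 genes with a change of 2, and 1.08% of unchanged genes. The simulated noise was independent between genes, and the changed genes were drawn from those above a minimum mean level. These rates therefore do not apply to low genes, to smaller changes or to a shift shared by many genes. Fold changes on this scale understate changes of low genes. Relations across libraries used permutation tests (scipy 1.17.1). Sequences came from RefSeq tables. Genes and lists were chosen with earlier results of these data known. Named genes are the 5 highest and 5 lowest, those of smallest p per comparison (3 higher, 3 lower), those called, the longest and shortest, and paralogs. Others given as examples of spread, of related lists or of shared sequence were chosen after their values were seen. Alternatives covered pseudocounts, filters, scaling, transcript types, pseudogenes, length trend, recovered read pairs, a replicate block and leaving out each mouse. Nothing states that mice of a group came from separate litters, so p values measure the spread between these mice. Some genes are not reported here.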

Additional observations from a re-analysis of the deposited data

How the results depend on the processing

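Over 28 alternatives for each comparison with control and 27 for the interaction, 0 ribosomal protein genes were called in stress against control and in the interaction. In ethanol against control, 1 of 85 was called with only the groups compared (145 of all 18434 genes), and 1 when the first ethanol + stress mouse was left out (148 of all genes). In ethanol + stress against control, 1 was called without the second ethanol mouse (215 of all genes) and 1 without the first ethanol + stress mouse (763 of all genes). The smallest limma adjusted p of a ribosomal protein gene over the alternatives was 0.237. Leaving out each mouse gave 0 to 1 called gene in these comparisons and medians of -0.060 to 0.35 for ethanol, -0.045 to 0.18 for stress, 0.15 to 0.50 for ethanol + stress and -0.13 to 0.28 for the interaction. Over the other alternatives the medians were 0.045 to 0.17, -0.0023 to 0.058, 0.13 to 0.28 and 0.015 to 0.087. With all mice, the medians were 0.16, 0.054, 0.27 and 0.051. The median of the genes had an SD of 0.31 between single mice, pooled over the 4 groups. This SD was uneven, from 0.058 among the controls to 0.43 among the ethanol mice. It describes single mice and is not the error of a difference between group means. On a common total the medians were 0.081, 0.036, 0.14 and 0.015, and the summed level was 1.08, 1.03 and 1.12 times that of control.

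Some single estimates changed sign. Rpl9-ps6 in ethanol was 0.028 on recovered read pairs and -1.24 to 0.36 without single mice. In stress, with pseudogenes added by name, Rpl27 was -0.0038, Rpl28 0.0093 and Rpl36a 0.0047, and with all genes of shared sequence added, an alternative chosen after seeing the data, they were -0.0041, 0.011 and 0.0047. Without single mice, Rpl28 was -0.22 to 0.028 and Rpl36a -0.15 to 0.15. Rps19bp1 in ethanol + stress was -0.22 to 0.094, and in the interaction Rpl7l1 was -0.20 to 0.065, Rpl12 -0.31 to 0.13 and Rps27l -0.0065 to 0.57 without single mice, and Rpl7l1 was 0.0084 on recovered read pairs. The cause was not tested.

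Counts over all genes moved more. Against 125, 94, 179 and 85 called genes for ethanol, stress, ethanol + stress and the interaction, a minimum of 1 TPM gave 69, 42 and 48 (ethanol, stress, interaction), no filter 198 and 131 (ethanol, interaction), protein-coding transcripts 56 and recovered read pairs 60 (stress). For ethanol + stress, a common total gave 118, and leaving out the third control, the first and the second ethanol + stress mouse gave 114, 763 and 118, with 140 for the interaction without the first. The split of ethanol + stress calls was 128 higher and 51 lower, 54 and 64 on a common total and 101 and 85 with the length trend removed. That of ethanol was 95 and 30, 69 and 46 on a common total and 71 and 66 with the length trend removed.

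Of 18 same-numbered pairs of libraries 1 had a correlation over 0.1 (range -0.17 to 0.16), and 2 of 12 libraries correlated best with their own number. The first ethanol + stress mouse had r = -0.33 with the second ethanol mouse and 0.34 with the third, whose numbers differ from its own. Whether the numbers mark littermates or mice handled together was not tested. With the replicate block 0 ribosomal protein genes were called in each comparison, the medians were 0.16, 0.054, 0.27 and 0.051, and 135, 94, 166 and 91 of all genes were called in place of 125, 94, 179 and 85.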
